A study of Mus musculus with 12 samples.

Results

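The genes described here are 10 markers of the endothelial cells of brain vessels and of the blood-brain barrier, out of 49315 genes listed in the table. They were chosen by name: the tight junction genes *Cldn5*, *Ocln* and *Tjp1*, the transporter genes *Slc2a1*, *Mfsd2a*, *Abcb1a* and *Slco1a4*, the endothelial junction genes *Cdh5* and *Pecam1*, and *Plvap*, whose product forms the diaphragms of leaky, fenestrated vessels. All 10 were found by their Ensembl identifiers and all 10 passed the filter on low counts. Bulk RNA-sequencing was performed on the brains of 12 mice at 14 d after stroke. The stroke was made by blocking the right middle cerebral artery for a time. The recipients were male Pep Boy mice (CD45.1), irradiated with the head shielded and given mixed bone marrow (BM). In the *Tet2*-KO group (n = 6) 10% of the BM cells came from CD45.2 *Tet2*-/- donors, and in the WT group (n = 6) 10% came from CD45.2 *Tet2*+/+ donors. The rest of the marrow was CD45.1 *Tet2*+/+ in both groups, and the brain vessels of every mouse were those of the recipient, with intact *Tet2*. The study calls the tissue brains or whole brains, and hemispheres in its discussion. The labels give each mouse as a separate sample. For the mice titled *Tet2*-KO, the label for treatment reads as control marrow. Groups were taken from the titles, which match the genotype label.

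In most of the brain, endothelial cells are sealed to each other by tight junctions, move few vesicles across the cell, and carry glucose, lipids and drugs through dedicated transporters. *Plvap* is low in such mature barrier vessels and is found in fenestrated vessels, such as those of the choroid plexus, and in vessels whose barrier is immature or lost. Claudin-5, encoded by *Cldn5*, is the main sealing protein of the brain endothelium, and *Mfsd2a* encodes a lipid transporter that also holds down transport in vesicles.

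Total counts per mouse lay between 12000261 and 15340787 in the WT group and from 12625047 to 21049763 with *Tet2*-KO marrow. Values below are CPM (counts scaled to a common library size, per 1e+06 counts) after TMM scaling, and changes are log2 fold changes of *Tet2*-KO over WT from edgeR, with the standard error (SE). The libraries of WT mouse 2 and *Tet2*-KO mouse 5 held more phagocyte transcripts than any other library of their group. Values without them are given for *Cldn5*, *Cdh5*, *Pecam1* and the gene lists whose calls after adjustment depend on them. In RNA from whole tissue, fewer endothelial cells and less RNA per endothelial cell cannot be told apart.

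The 10 genes did not differ between groups in 1 direction. *Cldn5* and *Cdh5* had lower means with *Tet2*-KO marrow, *Slc2a1* and *Mfsd2a* had higher means, and *Plvap* and the other 5 genes differed less. In the quasi-likelihood test of edgeR, 0 of these genes passed an adjusted p of 0.05, where 0.0246% of the 20290 tested genes did (5 genes). At an unadjusted p below 0.05 there were 4 of the 10, beside 23.1% of all tested genes. Of these, 2 were lower, beside 12.2% of all tested genes, and 2 were higher, beside 10.8%. For 0 of the 10 did the groups not overlap, which was the case for 1.09% of tested genes. *Cldn5* passed the adjusted threshold in the DESeq2 Wald test, which the study used, and in limma-voom with sample quality weights, as 1 of the 10 in each. These tests called 7.51% and 9.18% of all genes they tested.

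**Figure D1:**
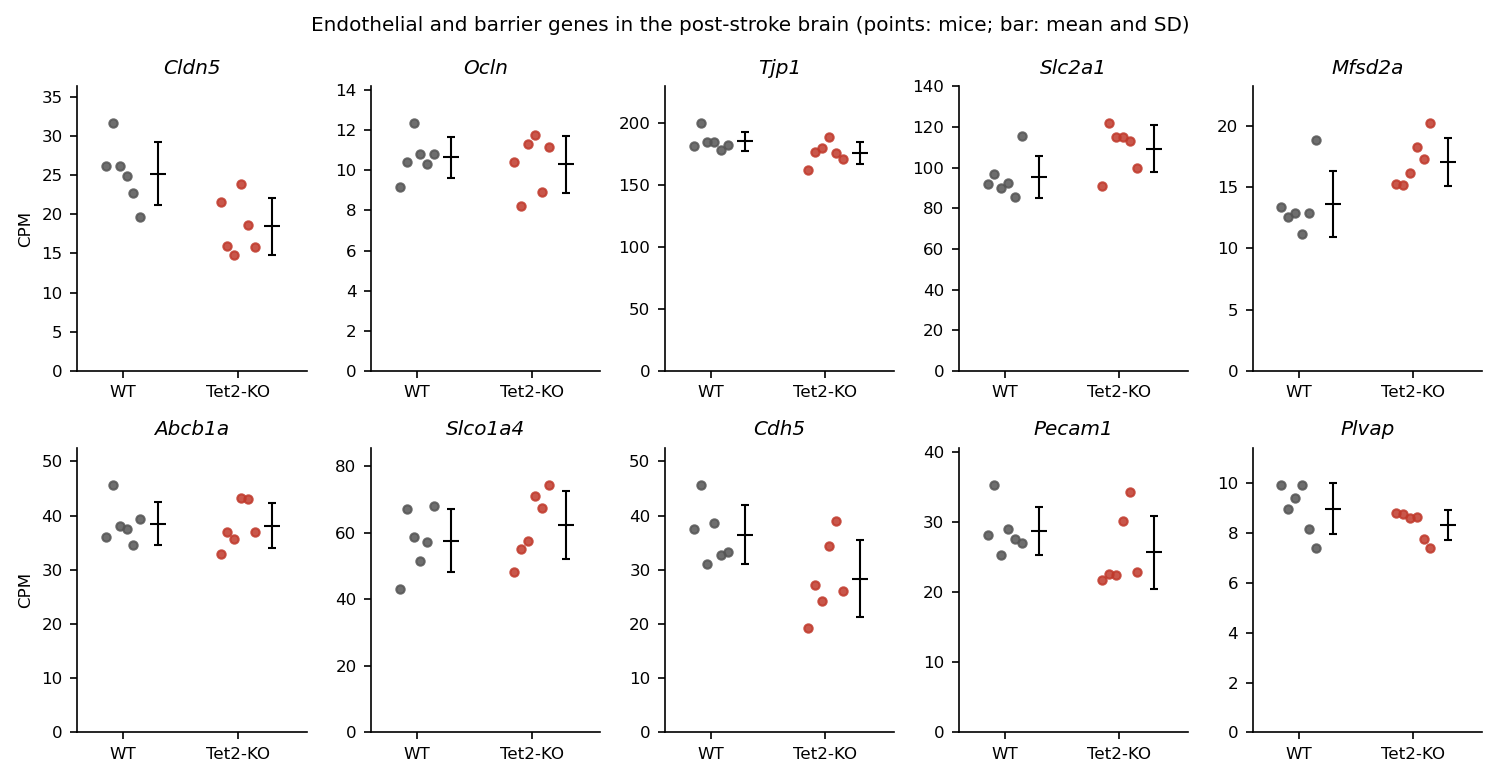
CPM (y axis, starting at 0) of each gene in each mouse, WT in grey and *Tet2*-KO in red, with the group mean and SD beside the points (n = 6 mice per group). The groups overlap for every gene, *Cldn5* being 1 of the genes with 4 of 6 *Tet2*-KO mice below all WT mice.

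Divided by the length of the annotated exons, the mean level in WT brains was highest for *Slc2a1*, at 27.2 ± 2.98 CPM per kb (SD, n = 6). *Tjp1* followed at 23.7 ± 0.974 and *Cldn5* at 17.8 ± 2.83 CPM per kb. The ranges of *Slc2a1* and *Tjp1* over the WT mice overlapped, and those of *Tjp1* and *Cldn5* did not. *Slco1a4*, *Cdh5*, *Abcb1a*, *Mfsd2a*, *Pecam1* and *Plvap* lay between 8.98 and 4.51 CPM per kb in that order, and each overlapped with the next. *Ocln* was the lowest, at 2.52 ± 0.244 CPM per kb, with no overlap with *Plvap*. *Plvap* was thus present in every library, with 93 to 180 counts. *Tjp1* encodes a scaffold protein that many other cell types of the brain also make.

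The sequences upstream of the genes with the lowest unadjusted p among the tight junction and transporter genes are shown for context. They are the RefSeq windows (GRCm38.p6, the build called mm10), printed 5′ to 3′ on the strand of the gene and stopped before the first annotated exon base. The windows are chr16:18776597-18776846 (plus strand) for *Cldn5*, chr4:119108495-119108710 (plus strand) for *Slc2a1* and chr4:122961189-122961438 (minus strand) for *Mfsd2a*. Capitals mark the GC box letters GGGCGG, which appear as CCGCCC on the other strand, in *Cldn5* and *Slc2a1*, and the letters ACGTG, the core of the hypoxia response element, in *Mfsd2a*.
Cldn5: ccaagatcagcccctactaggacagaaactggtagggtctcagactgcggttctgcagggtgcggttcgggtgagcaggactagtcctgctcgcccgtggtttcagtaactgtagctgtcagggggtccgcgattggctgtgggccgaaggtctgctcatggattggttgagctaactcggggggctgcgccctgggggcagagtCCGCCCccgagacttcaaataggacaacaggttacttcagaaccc
Slc2a1: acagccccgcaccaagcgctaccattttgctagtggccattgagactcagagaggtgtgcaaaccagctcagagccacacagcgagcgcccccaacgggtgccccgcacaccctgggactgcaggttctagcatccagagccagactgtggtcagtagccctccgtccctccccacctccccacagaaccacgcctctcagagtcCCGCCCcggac
Mfsd2a: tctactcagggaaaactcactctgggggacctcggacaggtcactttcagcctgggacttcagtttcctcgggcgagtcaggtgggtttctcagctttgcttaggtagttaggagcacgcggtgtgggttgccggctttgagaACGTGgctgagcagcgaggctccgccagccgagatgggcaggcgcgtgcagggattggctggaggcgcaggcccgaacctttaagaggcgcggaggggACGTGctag
Both strands were searched, and the ACGTG search was added after the sequences had been seen. GGGCGG was found in 32.7% and ACGTG in 16.6% of 32851 windows of 250 bases, so neither is rare. The Mfsd2a window held ACGTG at 2 positions and CTTTGA, the core of TCF/LEF sites, once, which 13.8% of windows hold. AGGAAG, an ETS core, is in 29.5% of windows and in none of these 3. A match describes the letters only. A window was matched for 7 of the 10 genes, and not for *Cdh5*, *Pecam1* and *Plvap*.

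Of the tight junction genes, *Cldn5* (ENSMUSG00000041378, chr16:18776847-18778262, plus strand) had 19.7 CPM in the lowest WT mouse, a median of 25.5 and 31.6 in the highest. With *Tet2*-KO marrow it had 14.9, 17.3 and 23.9 CPM. In 4 of 6 *Tet2*-KO mice *Cldn5* was below every WT mouse, and all 6 lay below the WT mean, while the other 2 fell inside the WT range. The mean was 25.2 ± 4.01 CPM in WT and 18.5 ± 3.64 in *Tet2*-KO (SD, n = 6 per group). The log2 fold change was -0.45 (SE 0.13). The edgeR adjusted p was 0.121 (unadjusted 0.0040). The exact two-sided permutation test of this gene alone gave p = 0.0173 (n = 6 per group). The adjusted p was 0.0210 in DESeq2 and 0.0225 in limma-voom. Without WT mouse 2, the highest, the *Cldn5* change was -0.37 (edgeR adjusted p = 0.238). It was -0.45 without *Tet2*-KO mouse 5 (edgeR adjusted p = 0.0602) and -0.37 without both (edgeR adjusted p = 0.113). *Ocln*, which encodes the tight junction protein occludin (ENSMUSG00000021638), had 10.6 ± 1.03 CPM in WT and 10.3 ± 1.42 in *Tet2*-KO (log2 fold change -0.05, SE 0.10, edgeR adjusted p = 0.818). *Tjp1* (ENSMUSG00000030516) had 185 ± 7.61 and 175 ± 8.99 CPM, with 4 of 6 *Tet2*-KO mice below all WT mice (log2 fold change -0.08, SE 0.05, edgeR adjusted p = 0.340). The interval of 2 SE ran from -0.25 to 0.15 for *Ocln* and from -0.71 to -0.19 for *Cldn5*, so these intervals overlapped. The changes of these genes were not tested against each other.

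Of the transporter genes, *Mfsd2a* (ENSMUSG00000028655, chr4:122946850-122961188, minus strand) had 11.1 CPM in the lowest WT mouse, a median of 12.9 and 18.9 in the highest. The *Tet2*-KO mice had 15.2, 16.7 and 20.2 CPM. All 6 *Tet2*-KO mice lay above 5 of the WT mice, and WT mouse 6 lay among them. The log2 fold change was 0.33 (SE 0.11, edgeR adjusted p = 0.137, unadjusted 0.0122), and the exact two-sided permutation test gave p = 0.0260 (n = 6 per group). *Slc2a1*, which encodes the glucose transporter GLUT1 (ENSMUSG00000028645, chr4:119108711-119137983, plus strand), had 85.8 CPM in the lowest WT mouse, a median of 92.1 and 115 in the highest. Its *Tet2*-KO values were 90.9, 114 and 122 CPM. The groups overlapped through the highest WT mouse, mouse 6 again, and the lowest *Tet2*-KO mouse. The log2 fold change was 0.20 (SE 0.08, edgeR adjusted p = 0.167, unadjusted 0.025; exact permutation p = 0.0584), and 7 of 12 fits with a mouse left out kept an unadjusted p below 0.05. GLUT1 is also made by other cells of the brain. *Abcb1a*, encoding the drug pump P-glycoprotein (ENSMUSG00000040584), had 38.5 ± 3.89 CPM in WT and 38.1 ± 4.14 in *Tet2*-KO, with an interval of 2 SE from -0.18 to 0.14 on the log2 scale. *Slco1a4*, encoding an organic anion transporter (ENSMUSG00000030237), had 57.6 ± 9.43 and 62.3 ± 10.2 CPM, with an interval from -0.14 to 0.36. Of the exon bases of *Slc2a1*, 3.00% are shared with the antisense gene Gm12868, and of those of *Abcb1a* 10.1% with Gm42686 on the other strand, and whether reads there were counted by strand is not known.

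Of the endothelial junction genes, *Cdh5*, which encodes VE-cadherin (ENSMUSG00000031871), had 31.0 CPM in the lowest WT mouse, a median of 35.4 and 45.7 in the highest. The *Tet2*-KO mice had 19.3, 26.6 and 38.9 CPM. In 4 of 6 *Tet2*-KO mice *Cdh5* was below every WT mouse, and *Tet2*-KO mouse 5 was above the WT mean. The log2 fold change was -0.37 (SE 0.15, edgeR adjusted p = 0.185, unadjusted 0.0338; exact permutation p = 0.0476). With each mouse left out in turn, 5 of 12 fits kept an unadjusted p below 0.05. Leaving out *Tet2*-KO mouse 1 gave -0.28 (edgeR adjusted p = 0.294) and leaving out WT mouse 2 gave -0.29 (edgeR adjusted p = 0.384), neither below 0.05 before adjustment. Without *Tet2*-KO mouse 5 the *Cdh5* change was -0.47 with an edgeR adjusted p of 0.0424, in a fit that called 2257 of about 20520 genes. Without both mouse 2 of WT and mouse 5 of *Tet2*-KO it was -0.40 (edgeR adjusted p = 0.0752). *Pecam1*, which encodes the adhesion molecule CD31 (ENSMUSG00000020717), had 28.7 ± 3.46 CPM in WT and 25.6 ± 5.21 in *Tet2*-KO (log2 fold change -0.16, SE 0.12, edgeR adjusted p = 0.426). The *Pecam1* change was -0.26 without *Tet2*-KO mouse 5 (edgeR unadjusted p = 0.0185, adjusted 0.0981), -0.10 without WT mouse 2 (adjusted 0.716) and -0.19 without both (unadjusted p = 0.0409, adjusted 0.194). CD31 is also made by platelets and leukocytes.

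*Plvap* (ENSMUSG00000034845) had 7.38 CPM in the lowest WT mouse, a median of 9.19 and 9.93 in the highest. The *Tet2*-KO mice had 7.39, 8.62 and 8.80 CPM. All 6 *Tet2*-KO mice lay below the WT mean but inside the WT range. The log2 fold change was -0.10 (SE 0.09), with an interval of 2 SE from -0.29 to 0.08 and an edgeR adjusted p of 0.518.

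**Figure D2:**
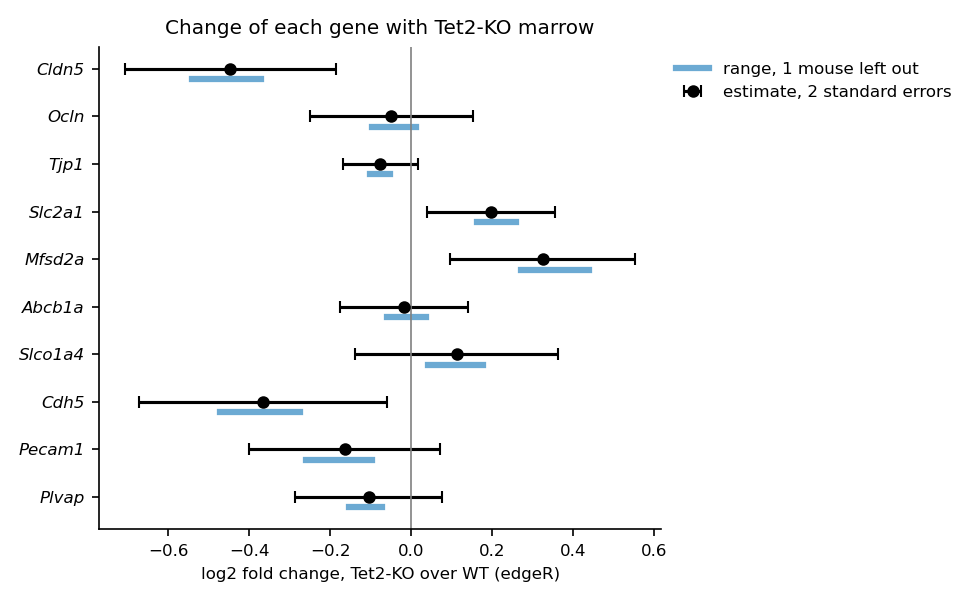
Log2 fold change of each gene, *Tet2*-KO over WT (x axis), with 2 standard errors (black) and the range when each of the 12 mice was left out in turn (blue). *Cldn5* and *Cdh5* lie to the left of 0 and *Slc2a1* and *Mfsd2a* to the right in every such fit, whereas *Ocln* and *Abcb1a* cross 0.

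The barrier genes were then set against *Plvap* in the same mouse, as the difference of log2 CPM, and tested with limma over all genes. Of the other 9 genes, 0 passed the adjusted threshold, beside 0.0444% of all genes, and 3 passed an unadjusted p of 0.05, beside 21.1%. The log2 ratio of *Cldn5* to *Plvap* was 1.47 ± 0.172 in WT and 1.12 ± 0.261 in *Tet2*-KO (SD, n = 6 per group), and it was lower than in any WT mouse in 5 of 6 *Tet2*-KO mice. The difference was -0.35 (SE 0.12, limma adjusted p = 0.150, unadjusted 0.00652). The ratio of *Mfsd2a* to *Plvap* was higher by 0.43 (SE 0.16, limma adjusted p = 0.162) and that of *Slc2a1* by 0.30 (SE 0.12, limma adjusted p = 0.169). Both ratios were highest among WT mice in mouse 6, and without that mouse the differences were 0.59 and 0.41, each with a limma adjusted p of 0.0327. In that fit 2267 of 20546 genes passed the adjusted threshold, so calls rose across the table. The differences of the other 6 ratios lay between -0.29 for *Cdh5* and 0.21 for *Slco1a4*. Relative to *Plvap*, barrier genes thus had lower means (*Cldn5*) as well as higher ones (*Mfsd2a*, *Slc2a1*).

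With *Cdh5* in place of *Plvap* as the reference, 2.34% of all genes passed the adjusted threshold and 51.4% an unadjusted p of 0.05. *Mfsd2a* relative to *Cdh5* was higher by 0.72 (SE 0.19, limma adjusted p = 0.0364), rising from a mean log2 ratio of -1.42 ± 0.380 in WT to -0.70 ± 0.327 in *Tet2*-KO. The other transporter genes were higher by 0.37 to 0.58, with limma adjusted p between 0.0610 and 0.0777. *Cdh5* itself differed by -0.37 between groups, so a gene without change is higher relative to it. *Abcb1a*, at -0.02 between groups, was thus higher by 0.37 relative to *Cdh5*. *Cldn5* relative to *Cdh5* differed by -0.06 (SE 0.18). The scale of the whole comparison moves with the reference gene, as the share of all genes called shows.

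**Figure D3:**
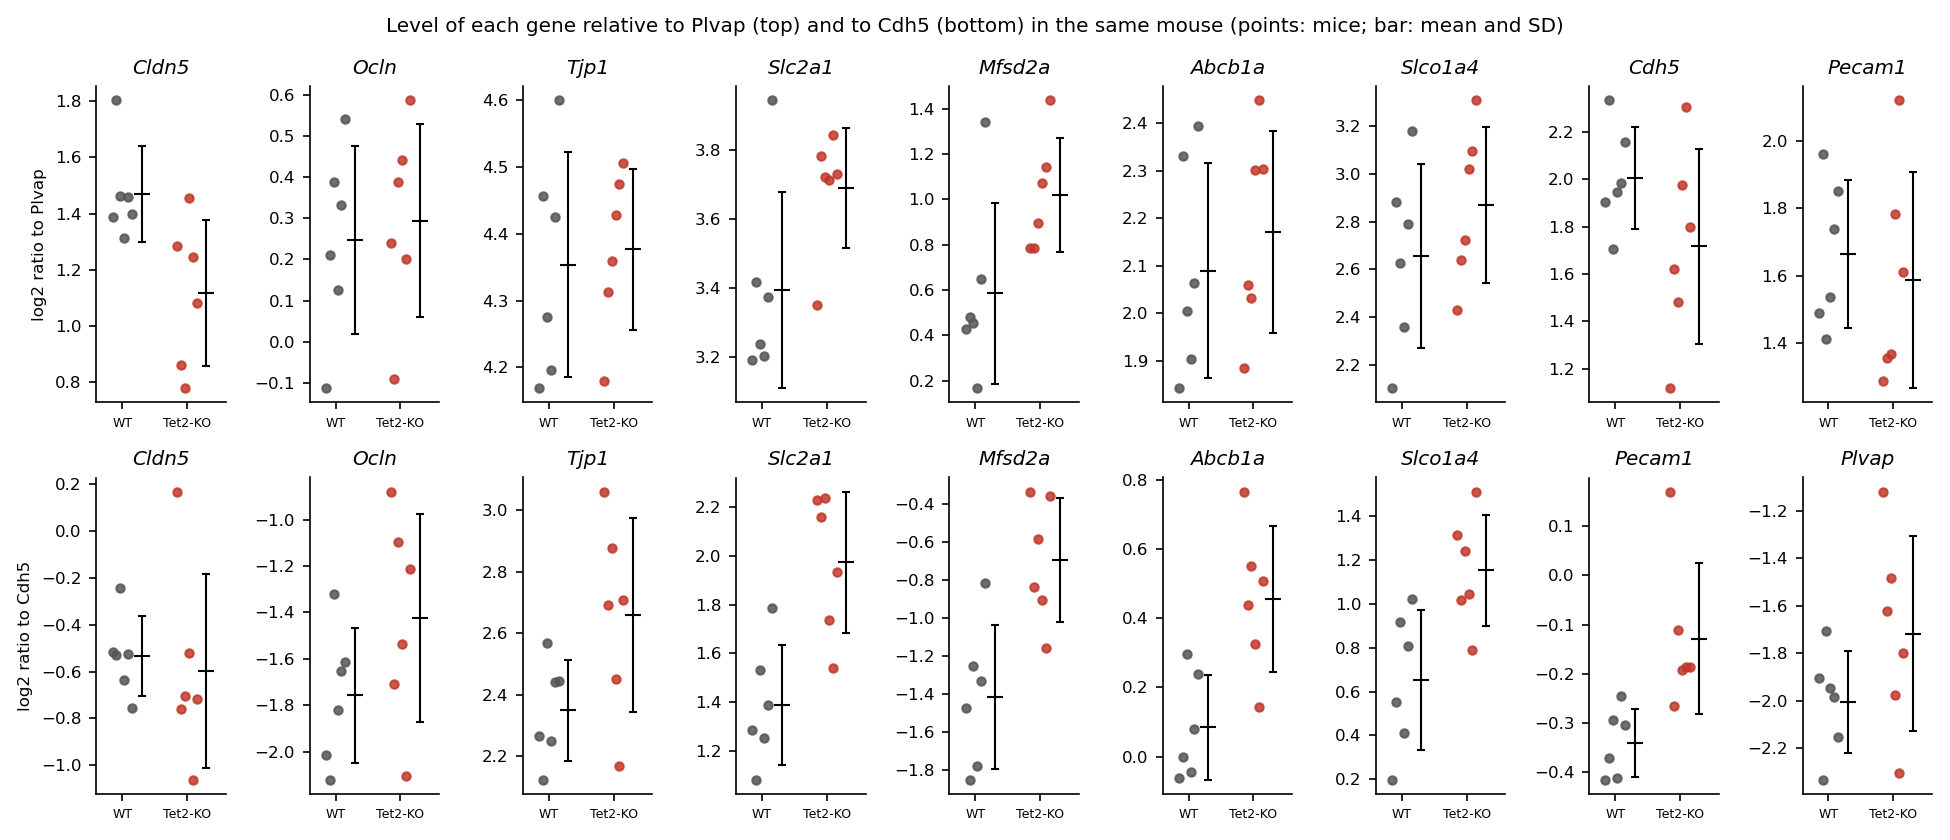
Log2 ratio of each gene to *Plvap* (top row) and to *Cdh5* (bottom row) in the same mouse (y axes, log2 scale, a separate range in each panel), WT in grey and *Tet2*-KO in red, with mean and SD beside the points. *Cldn5* to *Plvap* is lower than in all WT mice in 5 of 6 *Tet2*-KO mice, and *Mfsd2a* and *Slc2a1* show 1 high WT mouse each.

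Among mice of the same group, the 10 genes fell into unlike patterns. Over 12 mice, as deviations of log2 CPM from the group mean, *Cdh5* and *Pecam1* varied together (Pearson's r = 0.927), whereas *Mfsd2a* and *Plvap* varied in opposite directions (r = -0.792), as did *Slco1a4* and *Plvap* (r = -0.700). Over the 45 pairs the median r was 0.254, with 12 pairs above 0.5 and 14 below 0. These values share library depth and scaling and are given as a description. *Cdh5* followed the mean of 9 phagocyte markers (r = 0.953, Spearman's rho 0.874), and 1.41% of all tested genes did so more closely. *Pecam1* had r = 0.882 (rho 0.909), *Abcb1a* r = 0.800 (rho 0.518) and *Tjp1* r = 0.668 (rho 0.559). The values were lower for *Slc2a1* (r = 0.462, rho 0.336), *Slco1a4* (r = 0.455, rho 0.035) and *Mfsd2a* (r = 0.099, rho 0.028). They were also lower for *Plvap* (r = -0.112, rho 0.056) and lowest for *Ocln* (r = -0.254, rho -0.343). Without the 2 mice farthest from the median of the markers, *Tet2*-KO mice 1 and 5, r was 0.919 for *Cdh5*, 0.936 for *Pecam1*, 0.749 for *Abcb1a* and 0.815 for *Tjp1*. For *Cldn5* r was 0.195 over 12 mice and 0.860 without those 2, so its low value rests on them. With 9 fibroblast markers, r was 0.961 for *Cdh5* and 0.935 for *Pecam1*, and with 8 neuron markers it was -0.872 and -0.902. *Abcb1a*, whose log2 fold change between groups was -0.02, had r = 0.84 with the fibroblast and -0.909 with the neuron markers. *Tjp1* had 0.707 and -0.790. Without the 2 mice farthest by the neuron markers, WT mouse 2 and *Tet2*-KO mouse 4, the neuron value fell to -0.391 for *Tjp1*. It was then -0.799 for *Abcb1a*, -0.926 for *Cdh5* and -0.919 for *Pecam1*. Over 12 mice, 14.0% of all tested genes followed the phagocyte markers more closely than *Tjp1* did. The part of these cell types in the lower *Cdh5* and *Cldn5* was not tested.

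**Figure D4:**
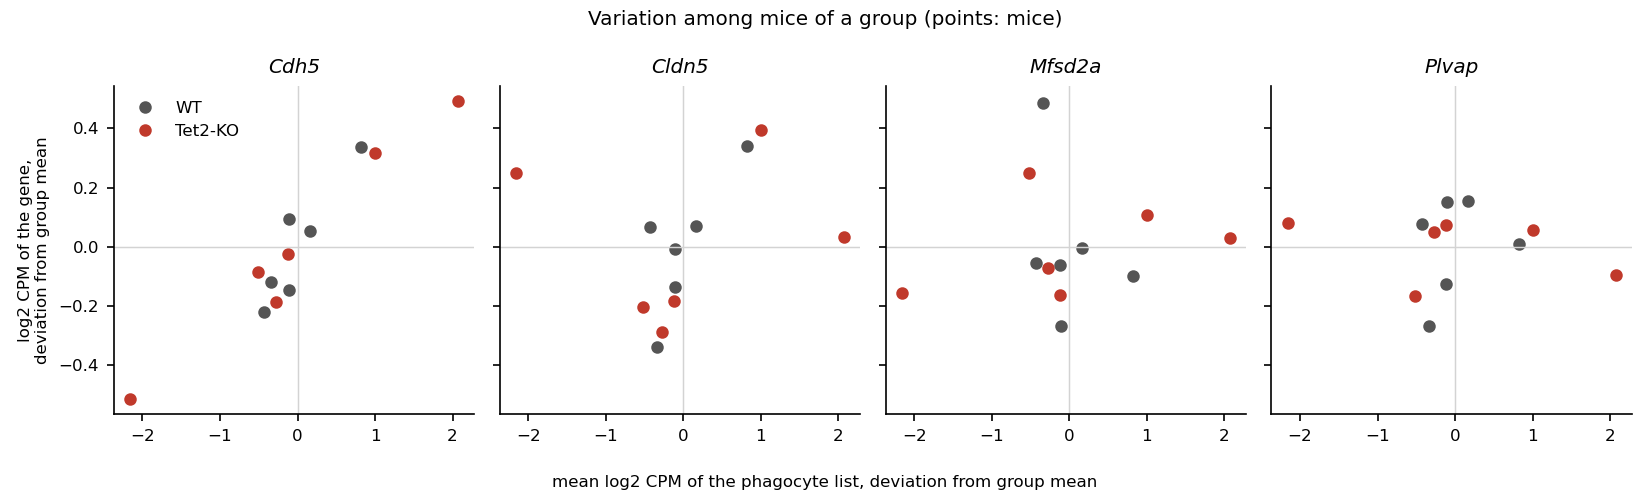
Deviation of log2 CPM from the group mean for 4 genes (y axis) against the same deviation of the mean of 9 phagocyte markers (x axis), 1 point per mouse, WT in grey and *Tet2*-KO in red. *Cdh5* is higher along the axis in both groups, *Cldn5* does so apart from the 2 outermost *Tet2*-KO mice, and *Mfsd2a* and *Plvap* show no such order.

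The genes most like *Cdh5* over the 12 mice were Cd22, Syngr2, Laptm5, Glipr2 and Dcn (r = 0.977 to 0.983). Those most like *Cldn5* were Kif27 (r = 0.973), 4930556J24Rik, Myct1, Orai3 and Gpr179, and those most like *Plvap* were Cables2 (r = 0.944), Gm7432, Gm48335, Traf3 and Rhpn1. Several of these lie near 1 CPM, where counting error is large.

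No gene of the other lists passed the edgeR adjusted threshold with all mice. Without *Tet2*-KO mouse 5 (2257 of about 20520 genes), 3 of 13 other junction genes and 3 of 21 other barrier transporters passed that threshold. So did 2 of 17 pericyte and smooth muscle genes and 2 of 8 neuron genes. The caveolae, endfoot, choroid plexus and platelet lists had 1 each. Without WT mouse 2 as well (1554 of about 20460 genes), only the first 2 of these counts changed, to 1 and 2. The counts that follow are at an unadjusted p below 0.05, beside the 12.2% lower and 10.8% higher of all tested genes. Among the other junction genes 4 of 13 were lower and 1 was higher, with a median log2 fold change of -0.10, where the median of all tested genes was 0.01. *Cgnl1*, encoding the junction protein paracingulin, was at -0.35 (SE 0.11, edgeR adjusted p = 0.123) and *Cldn12*, another claudin gene, at 0.18 (edgeR adjusted p = 0.146). Among 21 other barrier transporters 5 were lower and 2 higher (median -0.10). *Slc38a5*, an amino acid transporter gene, was lower in every *Tet2*-KO mouse than in any WT mouse (-0.46, SE 0.15, edgeR adjusted p = 0.125). The groups were barely apart, with 3.21 CPM in the highest *Tet2*-KO mouse and 3.23 in the lowest WT mouse. *Slc7a5*, which encodes the large neutral amino acid transporter LAT1, was at 0.31 (SE 0.10, edgeR adjusted p = 0.124). More of these transporters were lower than higher, and the 2 of 21 higher lay near the 10.8% of all tested genes.

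Among 25 other endothelial identity genes 7 were lower and 0 higher (median -0.14). *Emcn*, which encodes endomucin, a marker of veins and capillaries, had 8.70 ± 0.695 CPM in WT and 6.49 ± 0.994 in *Tet2*-KO, with no overlap between the groups (log2 fold change -0.43, SE 0.11, edgeR adjusted p = 0.110). *Kdr*, the gene of the VEGF receptor VEGFR2, was at -0.39 (edgeR adjusted p = 0.123), and *Fli1*, an ETS factor gene that leukocytes also express, at -0.73 (edgeR adjusted p = 0.123). Without WT mouse 2 and *Tet2*-KO mouse 5, 9 of the 25 were lower and 6 passed the adjusted threshold, with 1554 of about 20460 genes. Without *Tet2*-KO mouse 5 alone 8 of the 25 passed it. Of the 20 genes of the Wnt barrier programme, which induces and keeps the barrier, 3 were lower and 0 higher (median -0.03), among them *Adgra2*, encoding the Wnt7 coreceptor GPR124 (-0.32, edgeR adjusted p = 0.135). Of 8 caveolae and transcytosis genes 3 were lower and 0 higher (median -0.18), among them *Cavin1*, which encodes a coat protein of caveolae (-0.39, edgeR adjusted p = 0.198).

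The list with the lowest median among the vessel lists was that of activated or leaky endothelium, with 7 of 13 lower and 1 higher (median -0.47). *Selp*, which encodes P-selectin on activated endothelium and on platelets, had 2.30 ± 1.14 CPM in WT and 0.308 ± 0.269 in *Tet2*-KO with no overlap (log2 fold change -2.92, SE 0.48, edgeR adjusted p = 0.0752). The *Tet2*-KO values of *Selp*, from 0 to 0.785 CPM, were so low that counting error is large. *Lrg1* was at -1.27 (SE 0.29, edgeR adjusted p = 0.110) and *Adamts1*, a secreted protease gene, at -0.62 (SE 0.14, edgeR adjusted p = 0.110). *Ackr1*, which encodes a chemokine receptor of venules and red cells, was at 0.24 (edgeR adjusted p = 0.132). *Esm1*, the only other tested gene of this list above 0, was at 0.26 (edgeR adjusted p = 0.591). Without *Tet2*-KO mouse 5, 8 of 14 genes of this list passed the adjusted threshold, and without WT mouse 2 as well 4 of 13 did. The -0.10 of *Plvap*, which marks leaky vessels too, lay above the median of this list, and that difference was not tested. Of the 17 pericyte and smooth muscle genes 3 were lower and 0 higher (median -0.09). The lower ones were *Mcam* (-0.34, edgeR adjusted p = 0.121), *Anpep* (-1.38, edgeR adjusted p = 0.123) and *Pdgfrb*. *Pdgfrb*, a receptor gene of pericytes, was at -0.58 (SE 0.18, edgeR adjusted p = 0.128). At any p, 12 of the 17 changes were below 0 and 5 above it, where 9671 of all 20290 tested genes were below 0. Those above included *Abcc9* (0.14, edgeR adjusted p = 0.244), *Cox4i2* (0.23, edgeR adjusted p = 0.592) and *Atp13a5* (0.05, edgeR adjusted p = 0.722). Which cells gave the RNA of *Mcam*, *Anpep* and *Pdgfrb* was not tested. Of 8 astrocyte endfoot genes 1 was lower and 2 were higher.

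**Figure D5:**
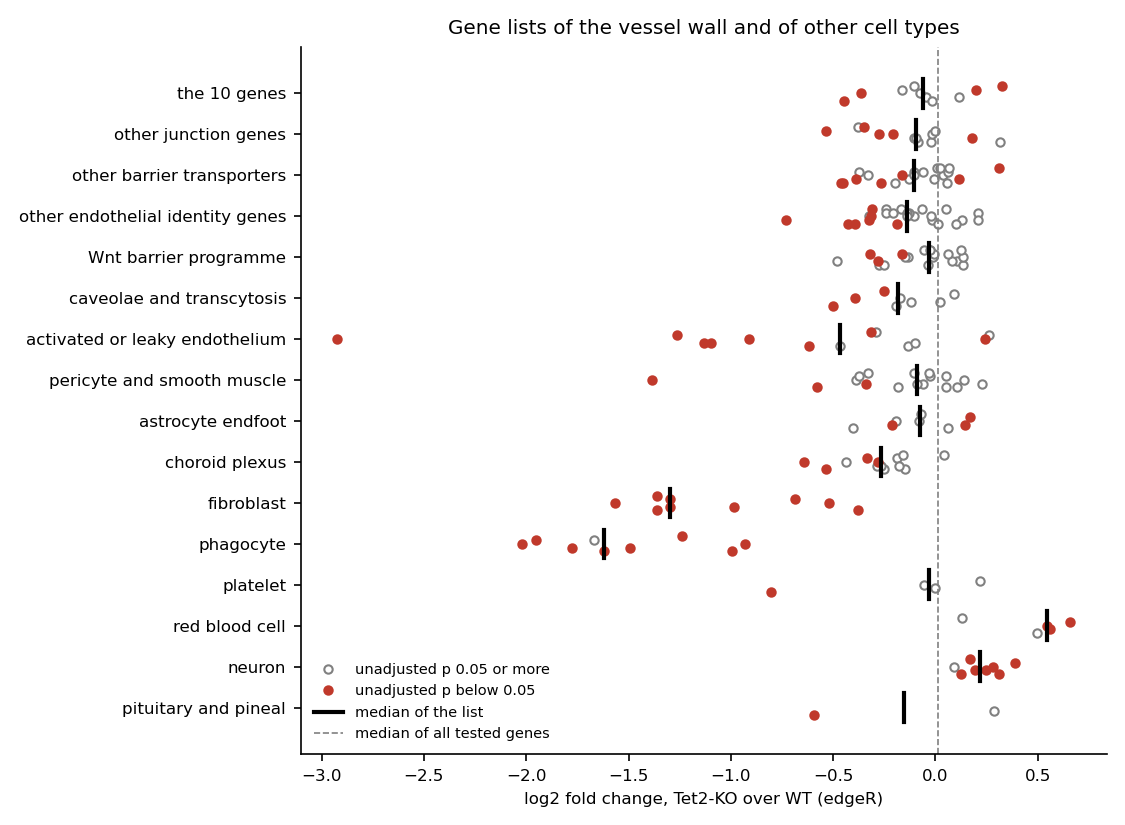
Log2 fold change of each tested gene (x axis), *Tet2*-KO over WT, by list, filled red at an unadjusted p below 0.05, with the median of each list (black bar) and of all tested genes (dashed line). The vessel lists have medians between -0.47 and -0.03, whereas the fibroblast and phagocyte lists have medians of -1.30 and -1.62.

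Markers of other cell types differed between the groups at an unadjusted p below 0.05. All 9 tested fibroblast genes and 8 of 9 phagocyte genes were lower. Of each of these lists 0 genes passed the edgeR adjusted threshold with all mice, 8 of 9 without *Tet2*-KO mouse 5, and 6 of 9 without WT mouse 2 as well. The summed phagocyte markers ranged from 1129 to 2897 CPM in WT and from 70.9 to 1652 CPM in *Tet2*-KO, where mouse 5 was the highest. The fibroblast sum ranged from 637 to 1400 CPM and from 171 to 804 CPM. Of 8 neuron genes 7 were higher (median 0.22, sums 2959 to 4255 and 3843 to 5167 CPM). Of 13 choroid plexus genes, whose tissue holds fenestrated, *Plvap*-rich vessels, 4 were lower and 0 higher (median -0.27, sums 562 to 739 and 453 to 770 CPM). Of 5 red blood cell genes 3 were higher (median 0.54, sums 21.8 to 31.6 and 27.7 to 42.0 CPM), of 4 platelet genes 1 was lower (*Pf4*, -0.81), and of 2 pituitary and pineal genes 1 was lower. No list gene was at 0 in all mice. The part of these cell types in the values of the 10 genes and of the vessel lists was not tested.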

How the data were processed

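The authors depleted ribosomal RNA, made paired-end libraries and, per the submitters' processing notes, used Trimmomatic 0.36, STAR 2.5.2b, featureCounts of Subread 1.5.2 and the build mm10. They deposited whole-number read counts per gene, from unique reads in exons, without normalization. The annotation and the strand setting are not given in the sources used here. Symbols, exon lengths and positions came from GENCODE M21 (GRCm38).

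From the deposited counts, CPM, log2 fold changes and tests were computed in R 4.3.3. Genes were filtered with filterByExpr, scaled with TMM and tested with edgeR 4.0.16 (quasi-likelihood F test, robust, all 12 mice, Benjamini-Hochberg over 20290 genes, threshold 0.05). Ratios used limma 3.58.1 with trend on log2 CPM with a prior count of 2. DESeq2 1.42.0 and limma-voom were run on the same filtered genes. Both were also run with a second setting, DESeq2 without the filter and limma-voom without robust moderation, added after the first counts of calls had been seen to differ from those of an earlier account of these data. The first settings are the ones in the report. The other alternatives were other scalings and filters, a replicate block and mice left out. The tests were run on simulated counts with the same dispersion for every gene and no shared variation between mice. For the ratio test no limit on false calls was set. These runs check the code and cannot show how the tests behave on the present data.

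The 10 genes and the lists were chosen with earlier results of these data known. All 10 are named, and of each other list genes came from those with the smallest edgeR p, up to 3 in each direction. Totals of 12000261 to 21049763 counts put every one of the 10 genes at 93 counts or more per mouse, and the error of the tests covers the spread between mice and counting error.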

Additional observations from a re-analysis of the deposited data

Results flagged for a closer look

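Of 38 groups of 6 mice examined (CPM of the 10 genes and their log2 ratios to *Plvap*), 5 held a mouse whose gap to its nearest neighbour exceeded the limit of Dixon's test for the group's range. Chance flags about 1 in 20 groups. *Tjp1* in WT mouse 2 was 199.7 CPM, above the other WT mice, and the log2 ratio of *Cldn5* to *Plvap* in the same mouse was 1.80. *Mfsd2a* in WT mouse 6 was 18.9 CPM, and the log2 ratio of *Slc2a1* to *Plvap* in that mouse was 3.94, both above the other WT mice. The log2 ratio of *Slc2a1* to *Plvap* in *Tet2*-KO mouse 1 was 3.35, below the other *Tet2*-KO mice.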

How the results depend on the processing

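The direction of *Cldn5*, *Cdh5*, *Slc2a1* and *Mfsd2a* held in every alternative run. Between the groups, *Cldn5* and *Cdh5* crossed the adjusted threshold in some alternatives, and *Slc2a1* and *Mfsd2a* in none, passing only as ratios. Genes called by edgeR numbered 5, with 44 without a filter on low counts, 0 with at least 10 counts in every library (edgeR), 0 to 2257 with 1 mouse left out (2257 without *Tet2*-KO mouse 5) and 1554 without WT mouse 2 and *Tet2*-KO mouse 5. The DESeq2 Wald test called 1464 and limma-voom 1863 on the same genes. In the settings added after these counts were seen, DESeq2 without the filter called 902 and limma-voom without robust moderation 2013. Each of these 4 tests called 1 of the 10 genes, *Cldn5*, with adjusted p of 0.0210, 0.0225, 0.0357 and 0.0183 in that order, and over all alternatives other than single mice left out its adjusted p ran from 0.0183 to 0.168. With 1 mouse left out, 0 to 1 of the 10 passed the adjusted threshold (*Cdh5*), and 2 to 5 passed the unadjusted one. Relative to *Plvap*, 0 to 2 passed with 1 mouse left out (*Slc2a1* and *Mfsd2a* without WT mouse 6, with 2267 of 20546 genes) and 1 with *Cdh5* as the reference. The labels share replicate numbers between groups, but same-numbered mice did not deviate together (r between -0.17 and 0.23), so the numbers were not taken as pairs. With a replicate block edgeR called 0 genes (at an unadjusted p under 0.05, 2405 lower and 1924 higher), and 1 of the 10, *Mfsd2a*, passed relative to *Plvap* (0.43, limma adjusted p = 0.0442, with 7.56% of all genes). Small changes turned sign: *Ocln* ran from -0.096 to 0.013 and *Abcb1a* from -0.060 to 0.038 with 1 mouse left out, and *Abcb1a* was 0.016 with upper quartile scaling and 0.0013 without both mice. Relative to *Plvap*, *Ocln* ran from -0.025 to 0.12 and *Tjp1* from -0.014 to 0.072 with 1 mouse left out, and *Pecam1* was 0.21 with *Cdh5* as the reference. The causes were not tested. With 93 to 180 counts per mouse, *Plvap* has the fewest counts of the 10 genes.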
